A study of Mus musculus with 25 samples.

Results

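Ly6Clow F4/80high macrophages were compared with Ly6Chigh F4/80low macrophages, both sorted from injured mouse muscle at day 4, the later of the 2 days on which both subsets were taken. The comparison rested on 2 samples of each subset, 4 of the 25 samples in the series, and on the 11764 of 38087 listed genes that reached 50 or more normalised counts in at least 1 of the 2 subsets. All mice were male C57BL/6J of 2 to 4 months whose tibialis anterior, a shin muscle, had been injected with cardiotoxin, a venom protein that lyses the fibres and leaves the satellite cells that rebuild them. The muscle was digested with collagenase, leukocytes were pulled out with magnetic beads against CD45, and the subsets were gated by flow cytometry on Ly6C, F4/80 and Ly6G. The question, as the study title gives it, is how infiltrating macrophages pass from the one subset to the other. The same 2 subsets at day 2 (3 samples each) and cultured bone marrow-derived macrophages (BMDM) without treatment or after 10 nM resolvin D2 (RvD2) for 4 h (3 libraries each) served for comparison.

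Monocytes that carry Ly6C on their surface enter damaged muscle from the blood, take up the debris of dead fibres and neutrophils, and then lower Ly6C and raise F4/80. The early form is known for inflammatory cytokines, the later form for engulfment, lysosomal digestion, iron recycling and secreted factors that act on muscle stem cells. Dendritic cells, lymphocytes and fibroblasts gather in the same tissue, some of them with Ly6C on their surface. Transcripts listed as markers of those cells are therefore given here apart from the macrophage genes.

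The deposited muscle values are the authors' group means on a log2 scale, so each subset has 1 value per gene, with no error and no test between subsets. Each value is printed here as a normalised count, with Ly6Chigh given first. The ratio is log2((Ly6Clow + 10) / (Ly6Chigh + 10)), and folds are on that scale, which compresses genes with low values. A gene is called when it differed at least 2-fold with the higher subset at 50 or more. A gene listed at 0 was under 1 normalised count in both libraries of its group, and no fold is given against it. The mean of 2 log2 values hides whether 1 library or both carried a transcript, and a gene found in 1 library alone is pulled toward the square root of its count.

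At day 4 848 genes were called (7.21% of those that reached the level), 351 of them higher in Ly6Clow cells (2.98%) and 497 lower (4.22%). The lower side was the more extreme. It held 198 genes that differed 4-fold or more and 67 that differed 8-fold or more, against 36 and 2 on the higher side. The median log2 ratio of all 11764 genes was 0.01. Summed normalised counts were 11.9 M (mega) in Ly6Chigh and 12.8 M in Ly6Clow cells, 12.5 and 12.6 M in the same subsets at day 2, and 12.4 to 12.8 M in the BMDM libraries. Depth in reads is unknown for the muscle groups. Scaled to equal sums, all ratios moved by about -0.10 and 287 genes were higher and 587 lower. Of the called genes described here, Mertk, Hexa, Smpd1, Abca1, Ptgr1, Kif22 and Cd28 and the higher genes at the edge were under the call with that scaling, 1 gene each of the growth factor, Toll-like receptor, costimulation and lipid handling lists was lower where none is given here, and 4 genes each of the lineage factor, type I interferon and immediate early lists were lower. Genes at the edge of the call were Fgd6, Pcp4l1 and Cd99l2 just inside and Sccpdh, Nek2 and Cdca5 just outside on the higher side. On the lower side they were Pde4d, Elovl6 and Pim2 just inside and Emb, Atp2b4 and 4930523C07Rik just outside.

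**Figure D1:**
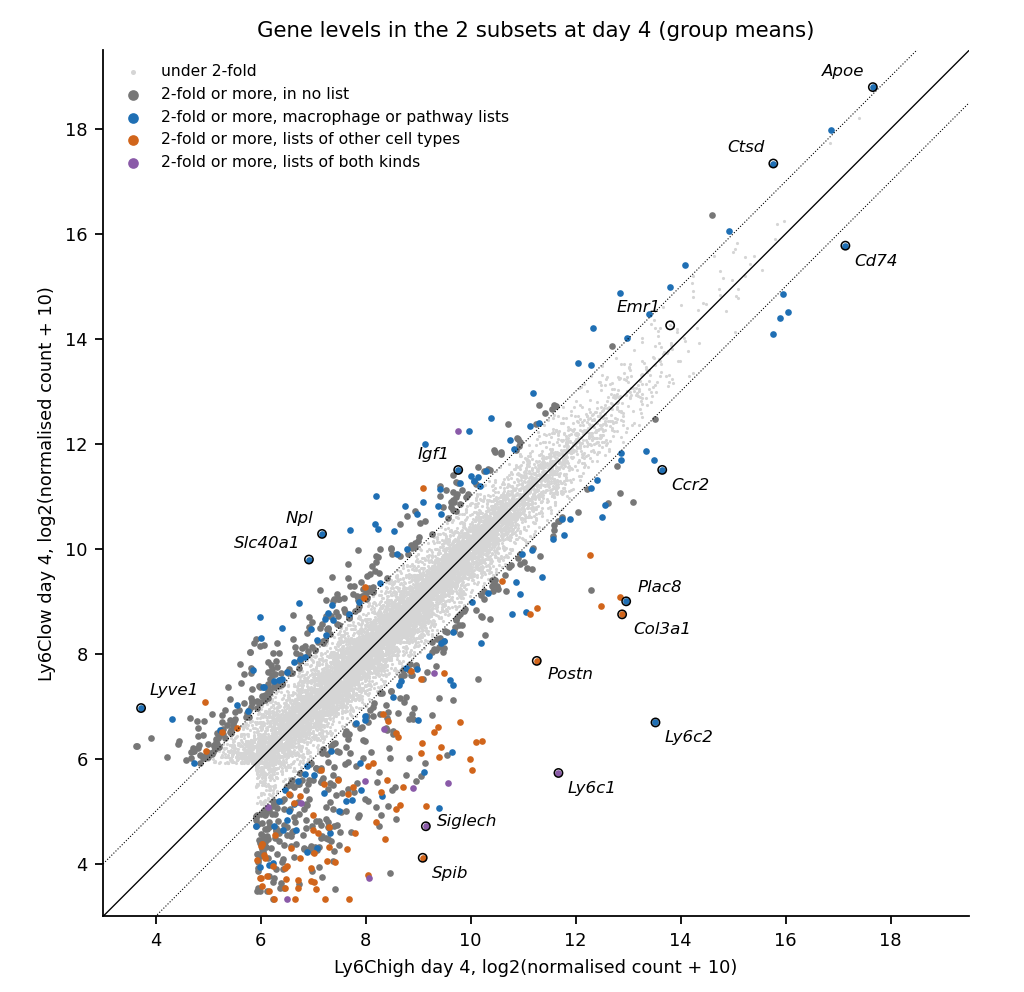
Level of each of the 11764 genes in Ly6Chigh (x axis) and Ly6Clow cells (y axis) at day 4, as log2(normalised count + 10) of the group means. The solid line marks equal levels and the dotted lines 2-fold. Coloured points are called genes. Of the 92 from lists of other cell types alone (orange) 85 lie below the lines, among them Spib and Col3a1, and those of macrophage and pathway lists (blue) lie on both sides. Genes under 2-fold are grey whatever their list.

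The gate itself was visible in the transcripts. Ly6c2, which encodes the Ly6C antigen together with its neighbour Ly6c1, stood at 11758 normalised counts in Ly6Chigh and 93.5 in Ly6Clow cells, and Ly6c1 at 3258 and 43.1. Emr1, which encodes F4/80, stood at 14270.0 and 19571, a log2 ratio of 0.46 that is under the call although the gate used it. Ly6g, the neutrophil antigen, was listed at 0 in both subsets. The pair of Ly6c genes are close paralogs on chromosome 15 (Ly6c2 at chr15:75108158-75111970, minus strand, and Ly6c1 at chr15:75044018-75048830, minus strand, GENCODE M21 on GRCm38), and reads shared between paralogs make each value uncertain on its own. Their upstream windows are printed because both genes carry the difference that defines the subsets. In a global alignment 164 of 216 aligned bases (75.9%) were the same. The capitals mark runs of at least 10 bases that matched position by position in that alignment. Other runs that the windows share but the alignment did not pair stay in lower case. The windows are the 250 bases before the start, 5′ to 3′ on the gene's strand (RefSeq, GRCm38.p6). They lie at chr15:75048838-75049087, minus strand, for Ly6c1 and chr15:75111972-75112221, minus strand, for Ly6c2.
Ly6c1: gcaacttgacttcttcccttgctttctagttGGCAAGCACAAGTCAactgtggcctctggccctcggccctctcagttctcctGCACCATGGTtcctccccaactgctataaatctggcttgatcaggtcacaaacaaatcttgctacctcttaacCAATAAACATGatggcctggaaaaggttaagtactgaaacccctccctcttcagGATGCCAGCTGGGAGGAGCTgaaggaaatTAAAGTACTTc
Ly6c2: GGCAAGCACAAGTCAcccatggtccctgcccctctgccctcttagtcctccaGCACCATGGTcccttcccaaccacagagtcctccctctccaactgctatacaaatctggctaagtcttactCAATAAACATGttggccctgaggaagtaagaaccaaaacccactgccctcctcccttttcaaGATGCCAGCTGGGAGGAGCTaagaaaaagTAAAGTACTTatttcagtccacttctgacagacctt

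Both subsets carried the listed leukocyte and macrophage identity genes. All 18 genes of the leukocyte and macrophage identity list reached the level, 1 was called higher (Mertk, a receptor for dying cells) and 0 lower, with a median log2 ratio of 0.16. Csf1r, the receptor for the growth factor of macrophages, stood at 28865 in Ly6Chigh and 36676 in Ly6Clow cells. Cd68, a lysosomal glycoprotein of macrophages, stood at 12201 and 18051, and the integrin gene Itgam at 11642 and 8882. These markers were thus present in both groups, but the list does not single out macrophages. In the sorted neutrophils of day 1, 0 of its 18 genes were listed at 0. The list held 2.14% of summed normalised counts there, against 2.74% in Ly6Chigh and 3.49% in Ly6Clow cells at day 4. Of the 24 Toll-like receptor and adaptor genes 0 were called (median -0.02), with Tlr2 at 7695 and 5939.7 and Tlr4 at 655 and 708. The respiratory chain list had 0 of 85 genes called (median 0.10) and the glycolysis list 1 of 25 lower (median 0.01). That gene was Slc16a3, a lactate exporter, at 2625 and 694.

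Scavenger receptor genes leaned to Ly6Clow cells. Of the 14 scavenger and resident-type receptor genes that reached the level, 6 were called higher and 1 lower, and the median log2 ratio was 0.95. Lyve1, a hyaluronan receptor of resident macrophages, stood at 3.21 in Ly6Chigh and 115 in Ly6Clow cells, 9.48-fold higher. Stab1, a receptor for altered proteins and phosphatidylserine, stood at 7351 and 29914 (4.07-fold), and its relative Stab2 at 9.87 and 98.6 (5.47-fold). The folate receptor gene Folr2 stood at 988 and 4819.8 (4.84-fold) and Cd5l, a secreted protein of tissue macrophages, at 282 and 1412 (4.88-fold). The mannose receptor gene Mrc1 was just under the call, at 5023 and 9992 (1.99-fold). Against the direction of the list, the lectin gene Cd209d stood at 80.1 in Ly6Chigh cells and was listed at 0 in Ly6Clow cells.

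For apoptotic cell uptake, 7 of 27 list genes were higher in Ly6Clow cells, 2 were lower and 18 were under 2-fold (median 0.08, and -0.03 with equal sums). The higher ones were led by the bridging proteins that tie phosphatidylserine on dying cells to a phagocyte. Mfge8 stood at 285 and 2036, 6.94-fold higher in Ly6Clow cells, and Gas6 at 1331 and 5772, 4.31-fold higher. The receptor of Gas6, Mertk, stood at 1808 and 3828 (2.11-fold), the lipid receptor gene Trem2 at 5001 and 11560.0 (2.31-fold) and Cd36 at 2237 and 5183 (2.31-fold). Ligand and receptor of the same pathway stood higher in the same cells. The 2 lower genes were Thbs1, another bridging protein (63718 and 29776), and the integrin gene Itgb3 (94.4 and 38.1). Among complement genes 1 of 16 was called higher and 3 lower. C1qc, a chain of C1q, stood at 14150.0 and 32325 (2.28-fold higher), while C1qa (1.94-fold) and C1qb (1.92-fold) were just short of 2-fold. C3, the central component, stood at 5032 and 2263 (2.22-fold lower) and Cfb at 6047 and 1819 (3.31-fold lower).

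Lysosomal enzymes leaned to Ly6Clow cells. Of 41 hydrolase and cathepsin genes 10 were called higher and 0 lower (median 0.62), against 3 of 31 genes of the lysosomal membrane and proton pump (median 0.27). The aspartic protease gene Ctsd stood at 55749 in Ly6Chigh and 165900.0 in Ly6Clow cells (2.98-fold), and the cysteine protease genes Ctsb at 118990.0 and 259680.0 (2.18-fold) and Ctsl at 5178 and 18919 (3.65-fold). Enzymes that take apart glycolipids and sugar chains were higher too. Glb1, a beta-galactosidase, stood at 875 and 2428 (2.75-fold), Hexa, a hexosaminidase chain, at 10801 and 22825 (2.11-fold), and Galc, which cleaves galactosylceramide, at 1127 and 2633 (2.33-fold). Sgsh and Naglu, both of heparan sulfate breakdown, were 2.7-fold and 2.29-fold higher. Smpd1, an acid sphingomyelinase, stood at 226 and 495. On the membrane side the exceptions were Atp6v0d2, a pump subunit of macrophages and osteoclasts, at 290.0 and 1328 (4.46-fold), Gpnmb (2.2-fold) and Cd63 (2.15-fold). The hydrolase list also had 12 of 40 genes called higher and 1 lower at day 2 (median 0.72), in other samples.

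Many lysosomal genes share a promoter element, known as CLEAR, that is bound by the TFEB family of transcription factors, so the windows of 300 bases around the RefSeq start (250 before, 50 after; GRCm38.p6) were searched for it. The letters GTCACGTG, on either strand, were in 6 of 33 hydrolase genes with a window (18.2%) and in 5 of 25 membrane and pump genes (20.0%), against 4.73% of 8204 windows of genes that reached the level and 2.33% of all 27025 windows. Of the 9 hydrolase genes with a window that were called higher, 4 held it (Ctsd, Glb1, Naglu and Sgsh). The 5 membrane and pump genes that held it were not called, and among all higher genes with a window the share was 3.02%, below that of genes that reached the level. The upstream 250 bases of 3 called genes follow, with the match in capitals as it reads on the gene's strand (Ctsd at chr7:142387828-142388077, minus strand; Glb1 at chr9:114400828-114401077, plus strand; Sgsh at chr11:119355511-119355760, minus strand).
Ctsd: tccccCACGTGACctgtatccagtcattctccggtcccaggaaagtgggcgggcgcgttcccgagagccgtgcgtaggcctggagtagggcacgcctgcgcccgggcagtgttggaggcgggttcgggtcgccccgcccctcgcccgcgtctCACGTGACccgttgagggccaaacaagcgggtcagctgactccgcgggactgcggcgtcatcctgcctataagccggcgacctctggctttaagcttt
Glb1: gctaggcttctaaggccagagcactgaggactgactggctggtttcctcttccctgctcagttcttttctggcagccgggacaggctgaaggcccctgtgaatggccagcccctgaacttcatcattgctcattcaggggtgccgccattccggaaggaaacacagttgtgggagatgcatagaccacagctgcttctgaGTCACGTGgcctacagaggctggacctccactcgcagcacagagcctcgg
Sgsh: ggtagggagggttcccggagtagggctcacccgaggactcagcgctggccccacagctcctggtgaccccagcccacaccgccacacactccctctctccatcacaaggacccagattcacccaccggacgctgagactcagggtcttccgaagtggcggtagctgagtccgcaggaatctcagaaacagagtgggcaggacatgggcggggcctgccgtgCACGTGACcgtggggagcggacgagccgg
Ctsd held the letters GTCACGTG at 2 places in these bases, and Glb1 and Sgsh at 1 each, 50 and 29 bases before the start. A match is a description of letters and not evidence of binding.

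**Figure D2:**
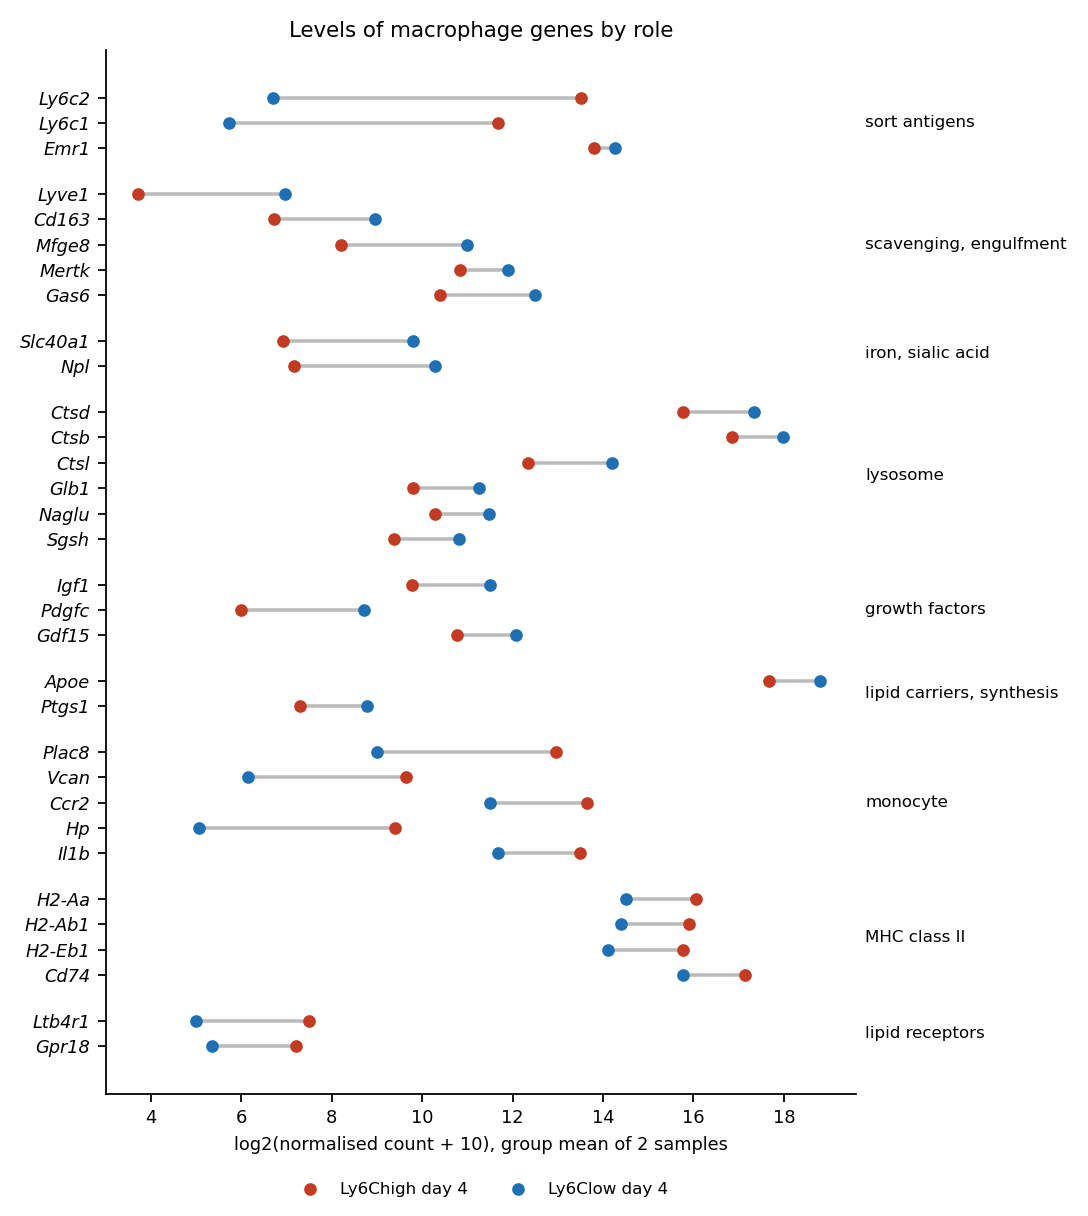
Levels of 32 macrophage genes by role at day 4, as log2(normalised count + 10), with Ly6Chigh cells in red and Ly6Clow cells in blue; each point is a group mean of 2 samples without error. The genes drawn are a selection from the lists, so the split by role partly reflects that choice. Drawn sort antigen, monocyte, MHC class II and lipid receptor genes were higher in Ly6Chigh cells except Emr1, and those of the other groups were higher in Ly6Clow cells. Called list members that went the other way, among them S1pr1, Mgst1, Thbs1 and Cd209d, are not drawn, and Hp is drawn with the monocyte genes.

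Iron genes differed between the subsets at both ends of the pathway. Slc40a1, which encodes ferroportin, the only known cellular iron exporter, stood at 111 in Ly6Chigh and 879.6 in Ly6Clow cells (7.34-fold), whereas at day 2 it stood at 27.9 and 47.9, below the level in both. Cd163, the receptor for hemoglobin bound to haptoglobin, stood at 95.6 and 489.5 (4.73-fold) at day 4 and at 256 and 377 at day 2 (1.45-fold). The ligand side ran the other way. Hp, which encodes haptoglobin, stood at 669 in Ly6Chigh and 23.6 in Ly6Clow cells (20.2-fold lower). Genes for the steps between uptake and export were higher to a smaller degree. Slc48a1, a heme transporter of the lysosome, was 2.32-fold higher, Blvrb, a biliverdin reductase, 2.34-fold, and Hmox1, which opens the heme ring, 1.95-fold, under the call. Over the whole list 5 of 27 genes were called higher and 2 lower (median 0.59).

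Among growth and repair factors 8 of 27 genes were called higher and 0 lower (median 0.43). Pdgfc, a platelet-derived growth factor that acts on fibroblasts and their progenitors, stood at 53.2 and 409 (6.63-fold). Igf1, a growth factor for muscle, stood at 859.8 and 2892 (3.34-fold), and Igfbp4, which binds its product, at 539 and 1902 (3.49-fold). Gdf15, a stress-induced member of the TGF-beta family, stood at 1725 and 4318 (2.49-fold) and Spp1 (osteopontin) at 17332 and 43292 (2.5-fold). The angiogenic factors differed from one another. Vegfb stood at 156 and 389 (2.4-fold higher) and Vegfa at 2525 and 1975, not called. Tgfb1 was close to equal at 5187 and 5697.

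The genes usually named for alternative activation did not follow the Ly6Clow side as a group, with 2 of 17 called higher and 6 lower (median -0.27). Arg1 (arginase) stood at 125 and 299 (2.29-fold higher) and Retnla, a secreted protein induced by interleukin-4, at 75.3 and 174 (2.16-fold higher). With 50 added in place of 10 both were under the call, and 3 of the list were lower. The chitinase-like genes Chi3l3 (1762 and 422) and Chi3l4 (226 and 50.4) were 4.1-fold and 3.91-fold lower, and as near-identical neighbours they may share reads. Irf4, a transcription factor of this program and of dendritic cells, stood at 386 and 159.7 (2.34-fold lower). Of the lineage factors 2 of 35 were called higher, Rxra (2.61-fold), a nuclear receptor partner, and Tfec (2.87-fold), a relative of TFEB, and 2 were lower, Nr4a2 (2.29-fold) and Id1 (2.23-fold). Maf, a factor of macrophage differentiation, was at 3026 and 4768, Pparg at 577 and 422 and Nr1h3 (LXR alpha) at 802 and 1125, none of them called.

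Lipid handling leaned to Ly6Clow cells. Of 27 cholesterol efflux and lipid handling genes 5 were called higher and 0 lower (median 0.32). Apoe, the lipoprotein of cholesterol efflux, stood at 207500.0 and 454980.0 (2.19-fold), and Abca1, the transporter that loads it, at 8027 and 16618 (2.07-fold). In the lipid mediator enzymes 3 of 21 were called higher and 0 lower (median 0.45): Ptgs1, the constitutive cyclooxygenase, at 146 and 428 (2.8-fold), Ltc4s, which makes leukotriene C4, at 57.3 and 155 (2.46-fold), and Ptgr1, a prostaglandin reductase, at 196 and 424 (2.11-fold). With 50 added only Ptgs1 of these 3 was called. The prostaglandin D synthase gene Hpgds stood at 1142 and 1963 and the thromboxane synthase gene Tbxas1 at 1398 and 2162, both under 2-fold. Ptgs2, the inducible cyclooxygenase, stood at 2415 and 1531, and Alox5 at 107 and 149.6. Alox15 stood at 38.7 and 18.7, below the level in both subsets.

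The receptors for such mediators leaned the other way, with 5 of 16 called lower (3 with 50 added) and 1 higher in Ly6Clow cells (median -0.84). Ltb4r1, the high-affinity receptor of leukotriene B4, stood at 171 and 22 (5.67-fold lower). Gpr18, described as a receptor for RvD2, stood at 139 and 30.8 (3.65-fold lower), and at 12.1 and 1.45 at day 2. The sphingosine-1-phosphate receptors split, with S1pr1 at 154 and 477 (2.97-fold higher) and S1pr3 at 89.4 and 25.5 (2.8-fold lower). In the list of cyclic AMP and amine receptor genes 3 of 19 were higher and 5 lower (2 with 50 added). The adenylyl cyclase gene Adcy3 stood at 199 and 1301 (6.27-fold higher) and the serotonin receptor gene Htr2b at 54 and 307 (4.95-fold higher). The adenosine receptor genes Adora2a (205 and 27.3) and Adora2b (679 and 284) were 5.78-fold and 2.34-fold lower. Gpr18 is also expressed by lymphocytes, whose markers were higher in the same Ly6Chigh group (11 of 16 T cell markers), and their part in its value was not tested.

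Several of the widest differences toward Ly6Clow cells were outside these classes. Npl, the lyase that breaks down free sialic acid, stood at 134 in Ly6Chigh and 1238 in Ly6Clow cells (8.66-fold higher), and Cd22, a sialic acid receptor, at 497 and 1613 (3.2-fold). Serpinb6a, an inhibitor of serine proteases inside cells, stood at 553 and 4063 (7.23-fold), and its neighbour in the family Serpinb6c at 2.42 and 65.3. Sepp1, which encodes the selenium carrier selenoprotein P, stood at 24779 and 84076 (3.39-fold), among the 10 higher genes with the highest level. Adra1a, an adrenergic receptor gene, stood at 2.6 and 65.8, and Sel1l3 at 48.6 and 286 (5.04-fold). Lyve1, Serpinb6c, Adra1a and Stab2 were all under 10 normalised counts in Ly6Chigh cells and 65 or more in Ly6Clow cells. Among Fc receptors 1 of 9 was higher, Fcrls (2329.9 and 8018).

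Of 20 chemokine ligands 2 were higher and 4 lower in Ly6Clow cells. Ccl8, a ligand for several monocyte receptors, stood at 418 and 1782 (4.18-fold higher), whereas Ccl9 stood at 5422 and 2528 (2.14-fold lower) and Cxcl12, also made by fibroblasts, at 189 and 26.9 (5.39-fold lower). Of 9 chemokine receptors 4 were lower and 0 higher, with Ccr1 at 1865 and 648. The lowest of them was Ccr9 (log2 ratio -4.33), which is given below with the plasmacytoid dendritic cell markers. The MS4A family of membrane proteins had 4 of 8 lower, among them Ms4a4c (5763 and 1550.2, 3.7-fold). The part of dendritic and lymphoid cells in the receptor and MS4A counts was not tested. The matrix protease list had 5 of 20 higher and 5 lower. Its higher members are known from macrophages, namely Mmp12, an elastase, at 364 and 1293 (3.49-fold), Mmp27 at 75.2 and 351 (4.24-fold), and the inhibitor Timp2 at 4211 and 11944 (2.83-fold). Its lower members included Adamts2, which processes collagen and is known from fibroblasts, at 150.0 and 13.9 (6.69-fold), and Mmp2 at 399 and 169 (2.28-fold). Fibroblast markers were lower in the same direction (23 of 27), and their part in those values was not tested.

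Monocyte genes were higher in Ly6Chigh cells, with 21 of 30 called lower in Ly6Clow cells and 1 higher (median -1.40). The lower genes include the gate gene Ly6c2 (log2 ratio -6.83), whose difference follows from the sort. Plac8, a small protein of myeloid cells, stood at 7982 and 502 (15.6-fold lower) and the matrix proteoglycan gene Vcan at 787 and 60.4 (11.3-fold). Ccr2, the receptor that brings monocytes out of the bone marrow, stood at 12850.0 and 2895 (4.43-fold). The exception was Mgst1, a glutathione transferase, at 379.9 and 953 (2.47-fold higher). At day 2 23 of 32 list genes were called lower (616 of 11275 genes, 5.46%, were lower at that day) and the median was -2.14. Over the 30 genes that reached the level on both days the medians were -2.64 at day 2 and -1.40 at day 4. The difference between days has no test.

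Inflammatory and interferon genes differed less at day 4 than the monocyte list. Il1b, which encodes interleukin-1 beta, stood at 11472 and 3285 (3.48-fold lower), and of 23 NF-kB target and feedback genes 5 were lower and 0 higher (median -0.42). Of 34 type I interferon-stimulated genes 2 were lower (Isg20 and Ifitm3, median -0.44), and of 27 interferon-gamma-induced genes 1 (Gbp4, median -0.32). On the samples of day 2 the same lists had 22 of 33 and 11 of 21 genes lower, with medians of -1.12 and -1.13. Immediate early genes had 1 of 25 lower, Btg2, at day 4 and 13 of 26 at day 2. Tnf stood at 969.6 and 826 at day 4, not called.

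MHC class II genes were lower in Ly6Clow cells on both days, less so at day 4. At day 2 8 of 8 were called lower, and over these 8 genes the median log2 ratio was -2.29 at day 2 and -1.18 at day 4, a change that has no test. At day 4 6 of 10 were called lower in Ly6Clow cells and 0 higher (median -1.34). H2-Aa stood at 67775 and 23426 (2.89-fold lower), H2-Ab1 at 60843 and 21602, H2-Eb1 at 55585 and 17537, and Cd74, the invariant chain, at 144410.0 and 56077 (2.57-fold). Ciita, the regulator that turns the class on, had one of the widest shifts between days. It stood at 287 and 13.6 at day 2, a log2 ratio of -3.65, and at 1826 and 1091 at day 4, a log2 ratio of -0.74, under the call. The 17 costimulation and checkpoint genes had 0 called (median -0.34). Classical dendritic cell markers, which go with class II expression, were higher in the same Ly6Chigh group, and their part in these values was not tested.

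**Figure D3:**
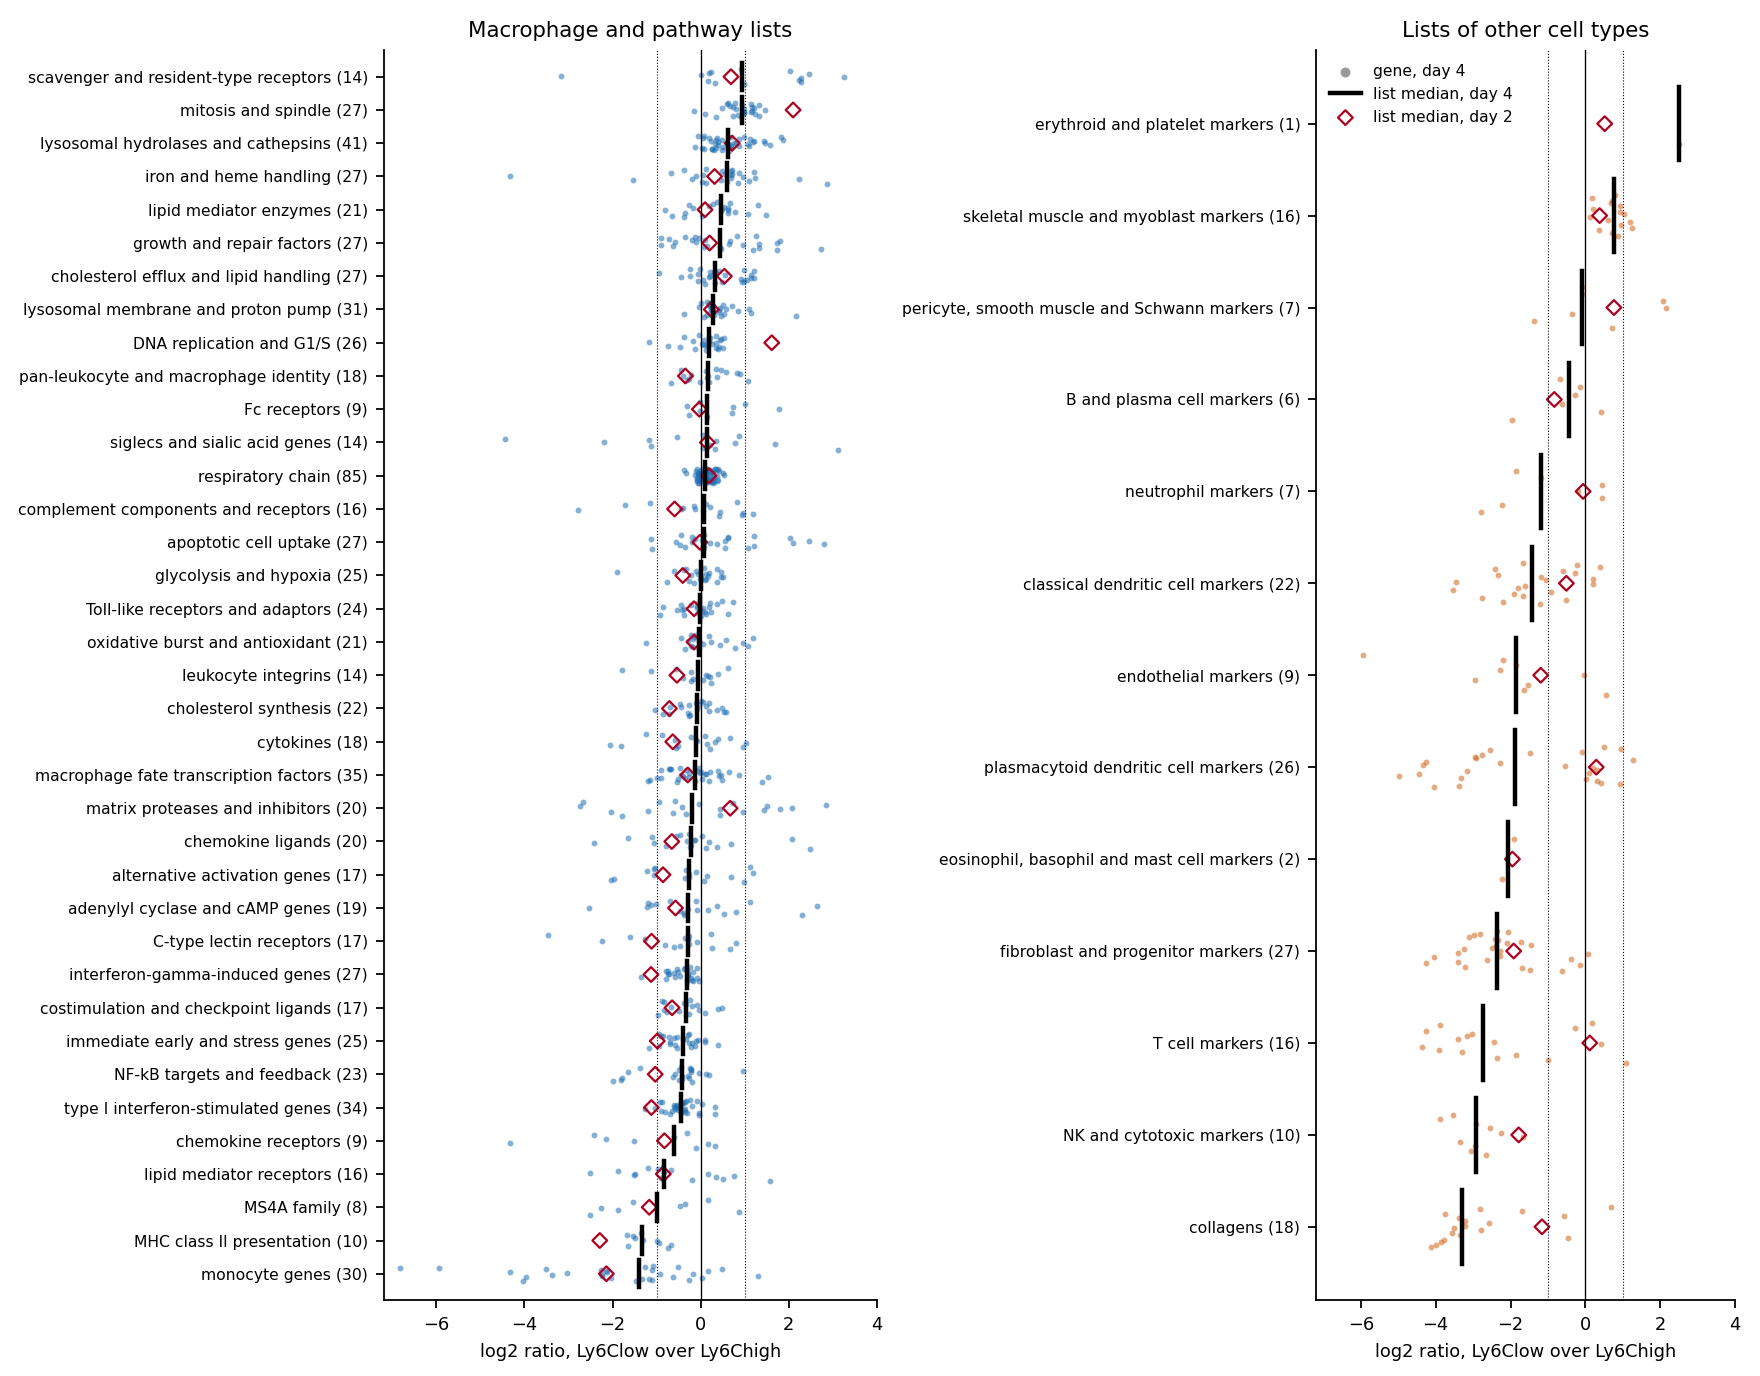
Log2 ratio of Ly6Clow over Ly6Chigh cells at day 4 for each gene of the macrophage and pathway lists (left, blue) and of the lists of other cell types (right, orange), with the number of genes that reached the level in parentheses. Black bars are list medians at day 4, red diamonds the medians at day 2 over genes that reached the level there, and dotted lines 2-fold. The collagen, NK and T cell lists have medians of -3.29 to -2.74 at day 4, further from 0 than any macrophage or pathway list. These medians cover the 18 of 44, 10 of 23 and 16 of 28 listed genes that reached the level. Most of those genes were higher in Ly6Chigh cells, so the level filter leans to that side. With 50 added in place of 10 the 3 medians were -2.41, -1.53 and -1.24, against -1.24 for the monocyte list.

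The second set of genes higher in Ly6Chigh cells at day 4 came from the lists of other cell types. A place in such a list does not show which cell made the transcript. Of 15 collagen genes called, all were lower in Ly6Clow cells, out of 18 that reached the level (median -3.29). Col3a1 stood at 7565 and 421 (17.6-fold lower), Col1a1 at 7374 and 535, and Col6a3 at 1174 and 71.2. Of 27 fibroblast and progenitor markers 23 were lower and 0 higher (median -2.37). None of the 5 defining fibroblast markers was at 0 in either subset. Pdgfra, a receptor of muscle mesenchymal progenitors, stood at 97.1 and 7.29, Dcn (decorin) at 409 and 34.1, and Lum (lumican) at 126 and 14. The summed level of the 44 listed collagen genes was 27741 in Ly6Chigh and 2396 in Ly6Clow cells, 0.234% and 0.0188% of all normalised counts, with 10 and 15 of them at 0. The 35 fibroblast and progenitor markers summed to 24731 and 9199. In these bulk samples, fewer cells of a type and less RNA per cell cannot be told apart, and the part of fibroblasts in the gate was not tested. Cultured BMDM had a mean of 18917 normalised counts of Col1a1 and 753 of Postn without treatment, in a table normalised separately.

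Lymphoid transcripts were on the same side, with summed levels of 4537 and 2950 for the 28 listed T cell markers and 2359 and 315 for the 23 NK and cytotoxic markers. Of 16 T cell markers 11 were lower and 1 higher in Ly6Clow cells (median -2.74), and of 10 NK and cytotoxic markers all 10 were lower (median -2.93). With 50 added in place of 10, 10 T cell and 9 NK markers were lower and 0 higher, with medians of -1.24 and -1.53. Cd3e stood at 29.7 in Ly6Chigh cells and Cd3g at 46.6, and both were listed at 0 in Ly6Clow cells, as were Cd8a (195 in Ly6Chigh cells) and Cd8b1 (140.2). Lck, the kinase of the T cell receptor, stood at 115 and 2.82, and Il2rb, a receptor chain of T and NK cells, at 319 and 12.2. Among NK genes Klrd1 stood at 115 and 5.06, Nkg7 at 119 and 2.56 and Ncr1, under the level, at 21 and 2.31. The exception in the T cell list was Cd28, at 241 and 527 (2.14-fold higher), which also had a mean of 1165 in untreated BMDM. Of 18 listed B and plasma cell markers 6 reached the level, 1 was lower and 0 higher (median -0.45), with summed levels of 6263 and 4063.9. Pax5, a defining transcription factor of B cells, was listed at 0 in both subsets.

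Dendritic cell genes included both called and shared members. Of 26 plasmacytoid dendritic cell markers 14 were lower in Ly6Clow cells and 1 higher (median -1.88). Spib, a transcription factor of that lineage, stood at 534 and 7.34 (31.4-fold lower), the surface marker gene Siglech at 557 and 16.3 (21.6-fold) and the chemokine receptor gene Ccr9 at 257 and 3.26 (20.1-fold). Markers that macrophages share with these cells were under 2-fold. Tcf4 stood at 1254 and 1168, Irf8 at 4526 and 5237, Tlr7 at 2110.5 and 2978 and Bst2 at 4724 and 5903. The list median was 0.15 over members present in cultured macrophages, and the summed level of all 27 listed genes was 38319 and 50690. Dnase1l3, a secreted nuclease, was the 1 member higher in Ly6Clow cells (246 and 611). Of 22 classical dendritic cell markers 14 were lower (9 with 50 added) and 0 higher (median -1.41), with Flt3, the growth factor receptor of the lineage, at 394 and 24.8 (11.6-fold), Zbtb46 at 55.7 and 10.8 and Clec9a at 98.6 and 25.5. Ly6C is known on plasmacytoid dendritic cells, on memory T cells and on endothelium. The endothelial list had 7 of 9 genes lower and summed levels of 5509 and 1303. Ly6c1, a gate gene whose difference follows from the sort, is among these 7 and held most of the Ly6Chigh sum. The part of such cells in the Ly6Chigh values was not tested.

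Markers of the remaining cells did not share this side throughout. Of 7 neutrophil markers that reached the level 4 were lower, yet Cxcr2 stood at 8.57 and 4.24 and Ly6g at 0, against 16068 for Cxcr2 in the sorted neutrophils of day 1. Muscle transcripts leaned the other way, with 3 of 16 genes higher in Ly6Clow cells and 0 lower (median 0.75). Acta1, the actin of muscle fibres, stood at 436 and 712, and Tnni1, a troponin, at 28.7 and 81.2 (2.36-fold higher). With 50 added none of the 3 was called. Whether those transcripts lay inside macrophages or beside them was not tested. Pf4, listed for platelets and also made by macrophages, stood at 854 and 4848 (5.62-fold higher), and other platelet and erythroid markers of that list did not reach the level.

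Taken by list, 75 lower genes were in macrophage or pathway lists alone (median -1.52), 85 in lists of other cells alone (median -2.77), 11 in both kinds and 326 in none. On the higher side the counts were 72, 7, 1 and 271. All genes of the other-cell lists together held 0.760% of the summed normalised counts in Ly6Chigh and 0.326% in Ly6Clow cells at day 4, and 0.267% and 0.241% at day 2. Of the higher genes 331 (94.3%) had a mean of 10 or more normalised counts in untreated BMDM, of the lower genes 374 (75.3%), and of all genes that reached the level 98.1%. Presence in BMDM does not mark a gene as one of macrophages. By that measure 17 of 18 collagen genes, 23 of 27 fibroblast markers and 9 of 9 endothelial markers were present. The 326 lower genes outside the lists included matrix genes such as Thbs2, Nid1, Cilp and Eln and lymphoid genes such as Gimap4, P2ry10 and Ikzf3, named here after their values were seen. With all listed other-cell genes set aside, 744 genes stayed called, 343 higher and 401 lower. The higher side lost 8 genes by this and the lower side 96.

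The samples of day 2 took no part in the calls at day 4, and each day had its own Ly6Chigh and Ly6Clow samples. Of the 291 higher genes that also reached the level at day 2, 224 (77.0%) were higher there as well, against 5.90% of all genes tested on that day, and 0 were lower. Of the 258 lower genes that reached the level at day 2, 199 (77.1%) were lower there as well, against 5.46% of all genes tested on that day, and 2 were higher. For macrophage-side genes alone the counts were 56 of 65 on the higher side and 53 of 57 on the lower side. The other-cell genes differed in whether they could be seen at all, since 20 of 85 reached 50 normalised counts at day 2 and 18 of those were lower. Postn, a matrix protein of fibroblasts, stood at 4.62 in Ly6Chigh and 2.63 in Ly6Clow cells at day 2 and at 2444 and 223 at day 4. Siglech stood at 11.2 at day 2 and 557 at day 4 in Ly6Chigh cells. Macrophage genes of the day 4 difference were thus mostly apart at day 2 as well, and 65 of the 85 other-cell genes were under the level there.

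**Figure D4:**
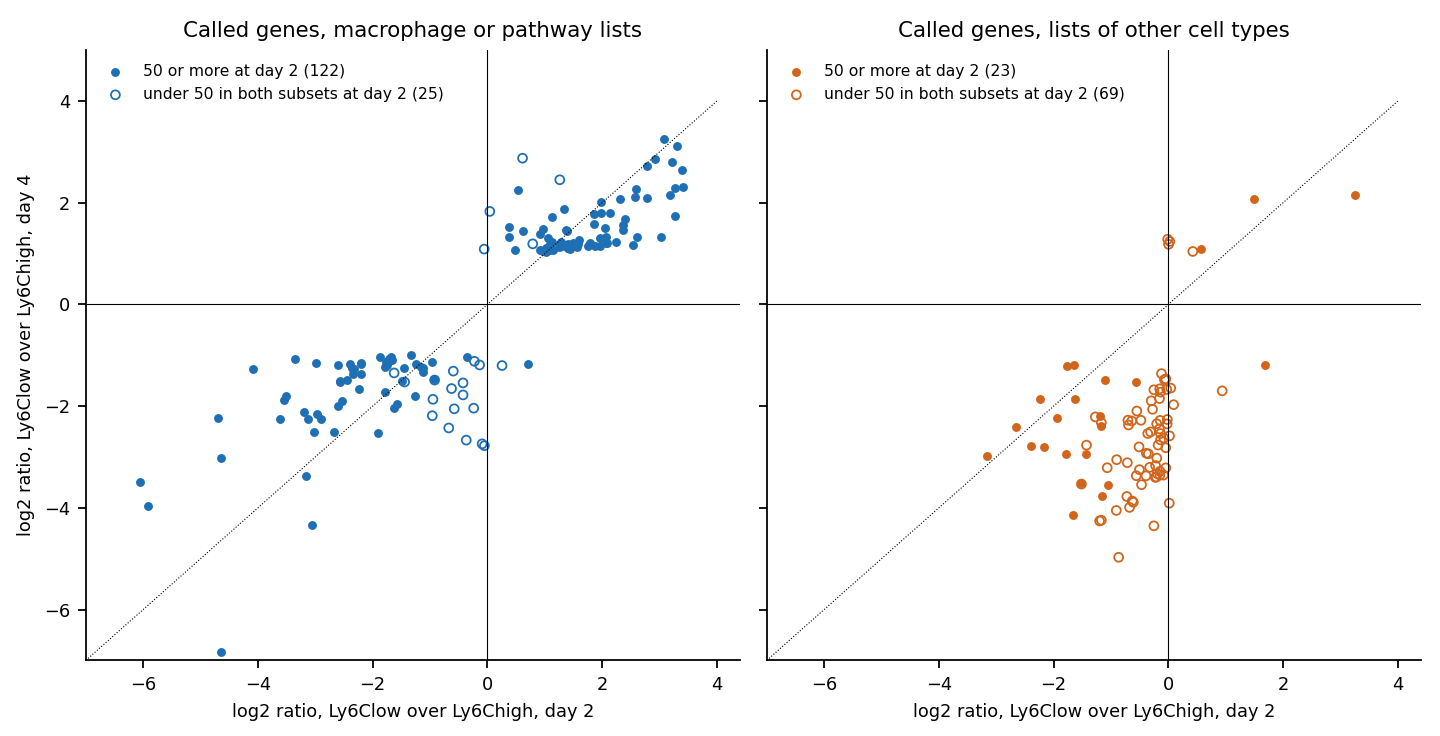
Log2 ratio of Ly6Clow over Ly6Chigh cells at day 2 (x axis) and day 4 (y axis) for genes called at day 4 that are in macrophage or pathway lists alone (left) or in lists of other cell types alone (right); open circles were under 50 normalised counts in both subsets at day 2. The dotted line marks equal ratios. Lower macrophage genes had a median of -1.52 at day 4 and, over the 57 that reached the level there, -2.33 at day 2. Higher ones had 1.33 at day 4 and, over the 65 that reached the level there, 1.85 at day 2. Of the 92 other-cell genes 69 are open circles gathered near 0 on the x axis.

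The widest shifts of the subset ratio between days were of 2 kinds. Toward Ly6Clow cells the lectin receptor gene Clec4n (dectin-2) went from a log2 ratio of -2.66 at day 2 (1943 and 298) to 0.80 at day 4 (1409 and 2453), and the monocyte receptor gene Emr4 from -4.08 to -1.26. Ciita, Itgal (an integrin chain), Ocstamp (a protein of macrophage fusion) and the gene model AL772299.1 were the others. Itgal stood at 3116 and 2757 at day 4, after 2555 and 351 at day 2. Toward Ly6Chigh cells the 6 widest shifts were those of the collagen genes Col1a1, Col1a2 and Col18a1, of Retnlg, a granulocyte gene, and of the gene models AC165433.1 and AC137938.1. In Retnlg the higher subset was Ly6Clow at day 2 and Ly6Chigh at day 4, with 22.5 and 94.2 at day 2 and 82.6 and 30.4 at day 4.

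Genes of mitosis leaned to Ly6Clow cells. At day 4 9 of 27 mitosis and spindle genes were called higher and 0 lower (median 0.94), with Plk1, a mitotic kinase, at 36.7 and 119.6 (2.78-fold), Birc5 (survivin) at 55.9 and 155 (2.51-fold) and Cdk1, the kinase that starts mitosis, at 97.7 and 230.4 (2.23-fold). These levels are low and the calls rest on the added count. With 50 added in place of 10, 0 mitosis genes were called and the median was 0.71. The DNA replication list had 0 of 26 higher and 1 lower (median 0.20). The lower gene was Ccnd1 (cyclin D1), at 1281 and 561. At day 2 both lists were higher in Ly6Clow cells, 19 of 23 mitosis genes (median 2.10) and 22 of 28 replication genes (median 1.61). Mcm2, a subunit of the replication helicase, stood at 239.5 and 1069.6 at day 2 and at 349 and 359 at day 4. At day 4 the replication list thus lay near the median of all genes and the mitosis list did not.

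Promoters of mitotic genes often hold the letters TTTGAA, the cell cycle genes homology region (CHR), near the start. They were found on either strand in 18 of 23 mitosis genes with a window (78.3%) and in 6 of 8 that were called higher, against 11.7% of windows of genes that reached the level and 18.1% of all windows. The upstream bases of 2 called genes are shown with the match in capitals as it reads on the gene's strand (RefSeq, GRCm38.p6; Cdk1 at chr10:69352913-69353162, minus strand; Ube2c, a ubiquitin carrier of mitosis, at chr2:164769679-164769928, plus strand).
Cdk1: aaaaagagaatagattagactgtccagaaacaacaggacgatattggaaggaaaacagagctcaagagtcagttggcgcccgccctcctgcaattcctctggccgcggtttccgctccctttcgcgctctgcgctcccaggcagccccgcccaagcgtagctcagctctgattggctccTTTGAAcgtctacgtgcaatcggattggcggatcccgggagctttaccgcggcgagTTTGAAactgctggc
Ube2c: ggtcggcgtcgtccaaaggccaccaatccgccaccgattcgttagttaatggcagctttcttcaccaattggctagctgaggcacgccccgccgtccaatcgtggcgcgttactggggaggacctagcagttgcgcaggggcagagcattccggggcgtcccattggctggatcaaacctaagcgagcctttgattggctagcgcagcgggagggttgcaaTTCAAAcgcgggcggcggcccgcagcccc
In all, 16 motifs were searched in these windows on both strands, after list results were known. Besides GTCACGTG and TTTGAA they were CACGTG (the E-box core, contained in GTCACGTG), GGAAGT for PU.1 with the longer form GAGGAAGT, CCGGAAGT for other ETS factors (both of which contain GGAAGT), and TGCTGAC for MAF factors. The others were TTGCGCAA for C/EBP, TGANTCA for AP-1, where N is any base, GGGCGG for the GC box, and the palindromic CLEAR, MARE, interferon response, kappa B, composite PU.1 and IRF, and DR4 motifs. A missing match says only that the letters are not in the window.

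The RvD2 libraries gave a readout of the subset genes that the choice of genes did not use. Across 15239 genes tested with limma, 283 passed a Benjamini-Hochberg adjusted p of 0.05 in BMDM after RvD2 (1.86%), 121 higher (0.794%) and 162 lower (1.06%) than without treatment. Of the 331 tested genes that were higher in Ly6Clow cells 5 rose and 23 fell with RvD2 (1.51% and 6.95%). Of the 379 tested genes that were lower in Ly6Clow cells 13 rose and 5 fell (3.43% and 1.32%). With 1 library left out, 1 to 6 genes of the Ly6Clow side rose and 11 to 21 fell, and 3 to 10 genes of the Ly6Chigh side rose and 2 to 7 fell. The difference in direction between the sides was not tested. The 46 genes that passed were 17 to 27 without untreated replicate 1, 2 or 3 or without RvD2 replicate 2 or 3, and 44 without RvD2 replicate 1. The labels give separate samples and do not say that they came from separate cultures, so these p-values measure the spread between samples, which may be technical.

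Of the 23 genes that fell, 7 were in the mitosis list, and Cdca3, Kif2c and Kif22, named after their values were seen, are also genes of cell division. In that list as a whole 20 of 28 tested genes fell with RvD2 and 0 rose (median log2 change -0.50, range -0.98 to 0.16). Without 1 library the count that fell was 7 to 20, and without a filter on the level it was 0. Ccnb2, a mitotic cyclin, stood at 318, 304 and 293 normalised counts in the untreated and 155, 162 and 148 in the RvD2 libraries, with the groups apart (log2 change -0.98, SE 0.080, limma Benjamini-Hochberg adjusted p = 0.00279). The replication list had 0 of 28 genes past the limma threshold (median -0.12, range -0.34 to 0.32), where 283 of all 15239 tested genes passed. At an unadjusted limma p under 0.05 that list had 5 of 28 genes and the mitosis list 27 of 28, against 2370 of all 15239.

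**Figure D5:**
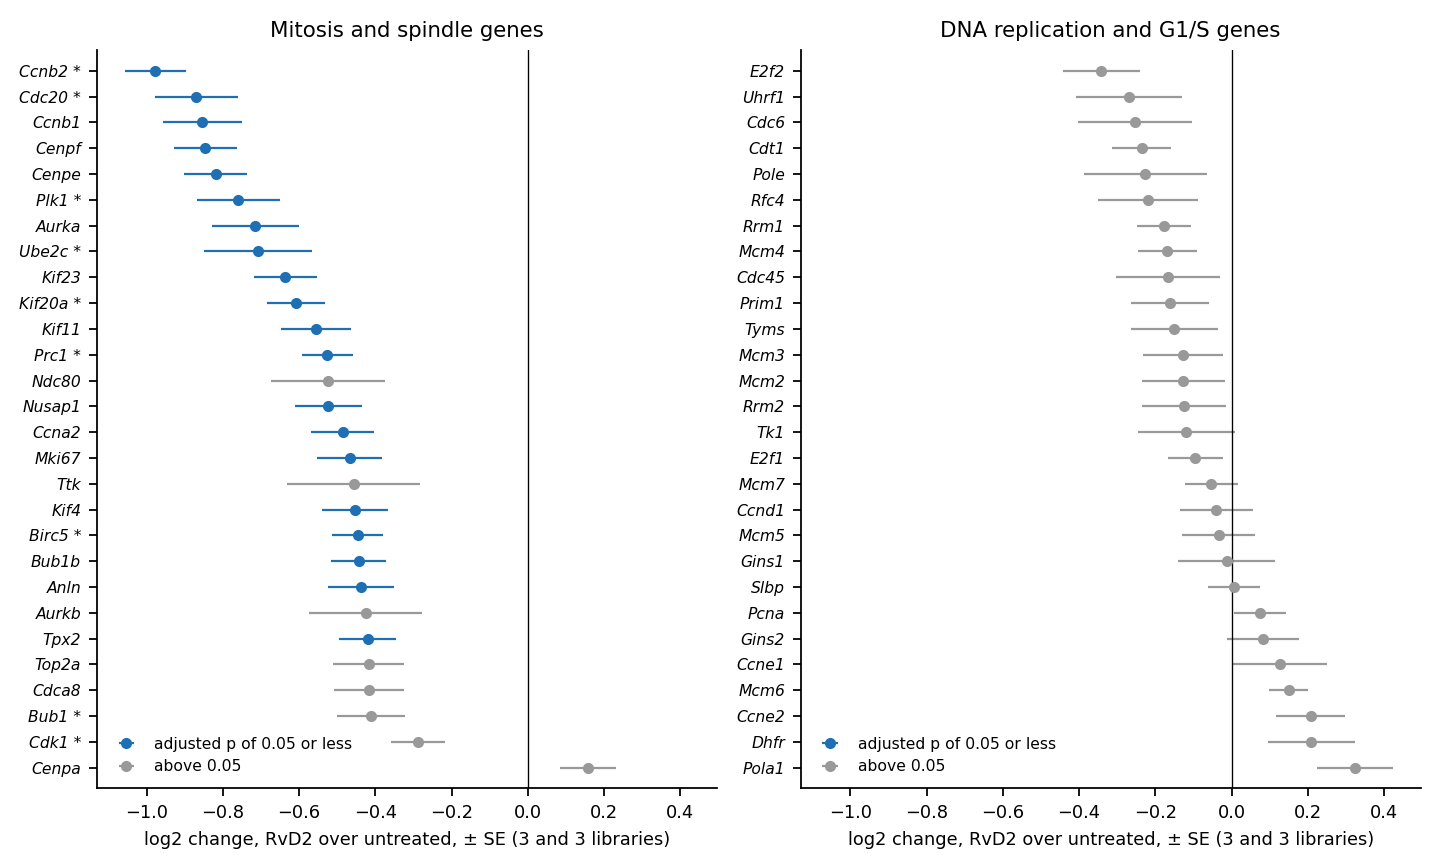
Log2 change in BMDM with RvD2 over untreated (point) with its standard error (bar) from limma over 3 and 3 libraries, for 28 mitosis genes (left) and 28 replication genes (right); blue points passed an adjusted p of 0.05 and an asterisk marks genes called higher in Ly6Clow cells at day 4. In the mitosis list 27 of 28 points lie below 0 and 20 passed, and in the replication list 20 lie below 0 and 0 passed.

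Outside cell division, some genes with a wide subset difference also passed under RvD2, and the ones named here were chosen after their values were seen. Slc40a1, the iron exporter gene, stood at 5254, 5242 and 5768 without treatment and 3077, 3824 and 3229 with RvD2, all 3 treated libraries below all 3 controls (log2 change -0.69, SE 0.085, limma adjusted p = 0.00813). Gdf15 stood at 1301, 1262 and 1487 and 856, 614 and 630.0, again with no overlap (log2 change -0.96, SE 0.13, limma adjusted p = 0.00936). Both were higher in Ly6Clow cells in muscle and lower with RvD2 in culture. Toward the other direction Nr4a2, a nuclear receptor of immediate response that was 2.29-fold lower in Ly6Clow cells, stood at 55.3, 68.8 and 71.9 and 145, 147 and 193 (log2 change 1.30, SE 0.16, limma adjusted p = 0.00746). Cytip, which binds a regulator of cell adhesion, was 3.37-fold lower in Ly6Clow cells and stood at 521, 724 and 819 and 1653, 2338 and 2982 (log2 change 1.74, SE 0.22, limma adjusted p = 0.00822). Genes that went the same way in both contrasts included Hilpda, a lipid droplet protein, higher in Ly6Clow cells (673 and 2058) and with RvD2 (log2 change 1.21, SE 0.087, limma adjusted p = 0.00142), and Lrp8, a lipoprotein receptor, lower in both (log2 change -0.99, SE 0.083, limma adjusted p = 0.00279). The lysosomal hydrolase, scavenger receptor and MHC class II lists had 0 genes past the limma threshold under RvD2, of 41, 13 and 7 tested, and 0, 2 and 1 at an unadjusted p under 0.05. Among all 15239 tested genes 283 passed and 2370 were at an unadjusted limma p under 0.05, so 0 passing in lists of this size says little.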

How the data were processed

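Sorted muscle macrophages and cultured BMDM were measured by RNA sequencing. Per the labels' protocols, poly-A RNA was made into TruSeq libraries without strand marking and sequenced on a HiSeq instrument. The submitters' processing notes name the mouse build mm10, DESeq and TopHat2 2.0.7; the gene annotation behind the counting was not given in the sources. The deposited values are log2 of normalised counts per gene as the authors made them, with values under 1 listed at 0. Each muscle column is the authors' mean of log2 values over a group, which was read from the steps among low values. Columns of samples from other series numbered 0, and 2 cells holding dates (Gpr34 in Ly6Clow, Zcchc11 in Ly6Chigh cells at day 4) were treated as missing. Groups came from the labels. The 6 samples of Ly6Chigh cells at day 1 and of blood monocytes were not analysed here.

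The log2 values were turned back into normalised counts and compared as ratios after adding 10 to each. Calls needed 2-fold and a level of 50. BMDM were compared with limma 3.58.1 (R 4.3.3) with a mean-variance trend on genes with a mean of 10 or more, two-sided, with Benjamini-Hochberg adjustment over all genes and a threshold of 0.05; the fit was tested on simulated data. Reads are not independent molecules, so p-values cover the spread between libraries only. Genes on overlapping or antisense loci and close paralogs are uncertain. Coordinates are from GENCODE M21 (95.3% of identifiers matched), promoter windows from RefSeq. Tables and plots were made in Python 3.11.15 (pandas 2.3.3, numpy 2.4.6, matplotlib 3.10.9).

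The genes named are the gate genes, Alox5, Alox15, Ptgs1, Ptgs2 and Gpr18, up to 5 called genes in each direction of each list, the 15 largest ratios and 10 highest levels in each direction, the genes nearest to 2-fold, the 6 widest shifts between days in each direction, Chi3l3 with Chi3l4, and list members used to describe a list. A few genes that this rule names are not reported here. The comparison, the 50 gene lists (37 of macrophage and pathway genes, 13 of other cells) and the rule were chosen with earlier results of these data known, and the promoters shown were chosen after their values were seen. The alternatives tried were other added counts (1 and 50), levels (20, 200, none), scalings, gene sets, test filters, a replicate block and leaving out each BMDM library.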

Additional observations from a re-analysis of the deposited data

How the results depend on the processing

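With 50 added in place of 10, 552 genes were called, 209 of them higher in Ly6Clow cells, and at a level of 200 there were 463, 224 higher and 239 lower. With no level, 777 genes were lower. The last 2 settings test fewer or lower genes by construction, and the first compresses low genes. Scaling to equal summed counts gave 287 higher and 587 lower genes and moved the median log2 ratio from 0.01 to -0.09. The other settings stayed within 1.5 times in each direction: 1 added (956 genes), a level of 20 (1103), medians set equal (855), value 0 taken as 1 (848), genes present in BMDM (705), other-cell list genes left out (744) and genes at 0 left out (842); the last 2 were chosen after seeing the data. Medians of 7 lists that lay within 0.2 of 0 changed sign under a setting, among them complement (0.09 to -0.02) and apoptotic cell uptake (0.08 to -0.03) with equal sums and matrix proteases (-0.19 to 0.84) at a level of 200. The plasmacytoid dendritic cell median went from -1.88 to 0.016 at a level of 200 and to 0.1526 over genes present in BMDM.

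No paired analysis was possible because the muscle table holds group means. For BMDM, the replicate block raised the subset genes passing limma from 46 to 136. Same-numbered libraries did not deviate together in every pair (correlations 0.29, 0.02 and 0.05). These few values cannot settle whether such libraries share a culture or day, and the labels do not say. The count of subset genes passing was 17 to 44 with 1 library left out. Without a filter on the level it was 0, with 148 subset genes at an unadjusted p under 0.05 (182 with the filter); the cause was not tested. With a mean of at least 50 it was 57. Depth limits genes near the level of 50, and with no replicate values in muscle no difference there can be set against sample spread.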
